A study of Drosophila melanogaster with 14 samples.

Results

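The fly miR-263 group was followed through embryonic development by 3 mature arms, dme-miR-263a-5p, dme-miR-263a-3p and dme-miR-263b-5p (written below without the species prefix), chosen by name among the 466 arms of a small RNA count table. Each hairpin precursor can give a 5p arm and a 3p arm, named for the end of the precursor they come from. The libraries came from whole Drosophila melanogaster embryos at 7 stages, which the labels number 1 to 7 and place at 160, 300, 530, 645, 930, 1160 and 1300 min without naming the start of the clock or a genotype. There were 2 libraries per stage and 14 in all, with no treatment. Nothing in the labels tells whether both libraries of a stage were collected separately, and the p-values thus cover the spread between these samples alone, which may be technical.

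miR-263a and miR-263b are the fly relatives of the vertebrate miR-183 family, which is known from sensory hair cells and photoreceptors. In the fly they are best known for protecting mechanosensory bristles: they limit the proapoptotic gene hid and so keep bristle cells alive while surplus cells around them are removed. In most miRNA hairpins one arm, the guide, is loaded into an Argonaute protein and kept, while the other, the passenger, is degraded. The 5p arms are the guides of both miR-263 hairpins.

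The hairpin of miR-263a (FlyBase symbol mir-bft, FBgn0263107) lies on chromosome 2L at 11953410 to 11953503, minus strand, in the dm6 annotation of Ensembl. It overlaps an exon of 1 of the 3 transcripts of the long non-coding RNA lncRNA:CR43314 (11952200 to 11971094). The miR-263a-5p arm covers 24 bases (11953463 to 11953486) and miR-263a-3p 22 bases (11953424 to 11953445). The hairpin of miR-263b (mir-263b, FBgn0262371) lies on chromosome 3L at 15843406 to 15843495, minus strand, and its 5p arm covers 21 bases (15843460 to 15843480). It sits in an intron of all 3 transcripts of meru (15837773 to 15844062), a gene known for its part in the polarity of dividing sensory organ precursors. The 2 hairpins are therefore on different chromosome arms and have different host genes.

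Total counts per library ran from 17462 to 72507, and 85 arms were abundant enough to test. All 3 members were among them, with 38179 counts of miR-263a-5p, 96 of miR-263a-3p and 175 of miR-263b-5p over the 14 libraries. The fourth arm, miR-263b-3p, is not a member and had 1 count in all, in stage 7 replicate 1. miR-286-3p, an arm of the early zygotic miR-309 cluster, took 57.3% to 65.3% of counts in the libraries of stages 1 to 3 and 9.16% to 22.6% in those of stages 5 to 7, so plain shares of all other arms move with it. Levels are therefore given both as a share of all counts and as CPM, counts scaled to a common library size, corrected by TMM, edgeR's trimmed mean of M-values.

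miR-263a-5p was present from the first stage and became one of the most abundant miRNAs of the embryo. It took 0.328% and 0.372% of counts in the 2 libraries of stage 1, 2.17% and 2.38% in stage 2, and 3.79% and 4.36% in stage 3. The share went on to 6.98% and 7.32% in stage 4, 10.1% in both libraries of stage 5, 8.19% and 8.26% in stage 6, and 8.99% and 11.98% in stage 7. Libraries of one stage lay close together except in stage 7, and no library of stages 1 to 3 reached the share of any later one. By rank among all arms it was 19th and 16th in the libraries of stage 1, 6th and 5th in stage 2, and between 2nd and 5th in every later library.

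On the TMM scale most of the course was over by stage 3. Stage 1 held 5434 ± 113 CPM (SD, n = 2) and stage 2 held 30083 ± 765 CPM, a rise of 2.47 ± 0.312 on the log2 scale (SE; edgeR quasi-likelihood test, adjusted p = 1.63e-05). This step called 17.6% of all tested arms, 15.3% as higher and 2.35% as lower. Stage 3 stood at 60737 ± 613 CPM, higher than stage 2 in both libraries. That log2 fold change of 1.01 ± 0.294 did not pass edgeR's test (adjusted p = 0.115), in a step where edgeR called none of the 85 arms (0%), 14 arms had an unadjusted p below 0.05, and DESeq2 called 2 arms. DESeq2 called miR-263a-5p there (log2 fold change 0.81, adjusted p = 0.000361), and edgeR did so without stage 7 replicate 1 (0.93, adjusted p = 0.0322).

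From stage 3 on the stage means of the TMM-scaled level lay between 58545 and 83568 CPM. Stage 4 had 58545 ± 2624 CPM (SD, n = 2), stage 5 had 68228 ± 5724, stage 6 had 61559 ± 36.4 and stage 7 had 83568 ± 26059. In order of level the stages ran 1, 2, 4, 3, 6, 5 and 7. Stage 4 exceeded stage 2 (log2 fold change 0.96 ± 0.293, edgeR adjusted p = 0.0196), and no 2 neighbours above it in this order differed beyond their spread (edgeR adjusted p from 0.789 to 0.939). The mean of stage 7 rests on its replicate 2, at 101994 CPM against 65142 in replicate 1. In these 2 libraries miR-286-3p took 22.6% and 9.16% of counts, and the part of that difference in the result was not tested.

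**Figure D1:**
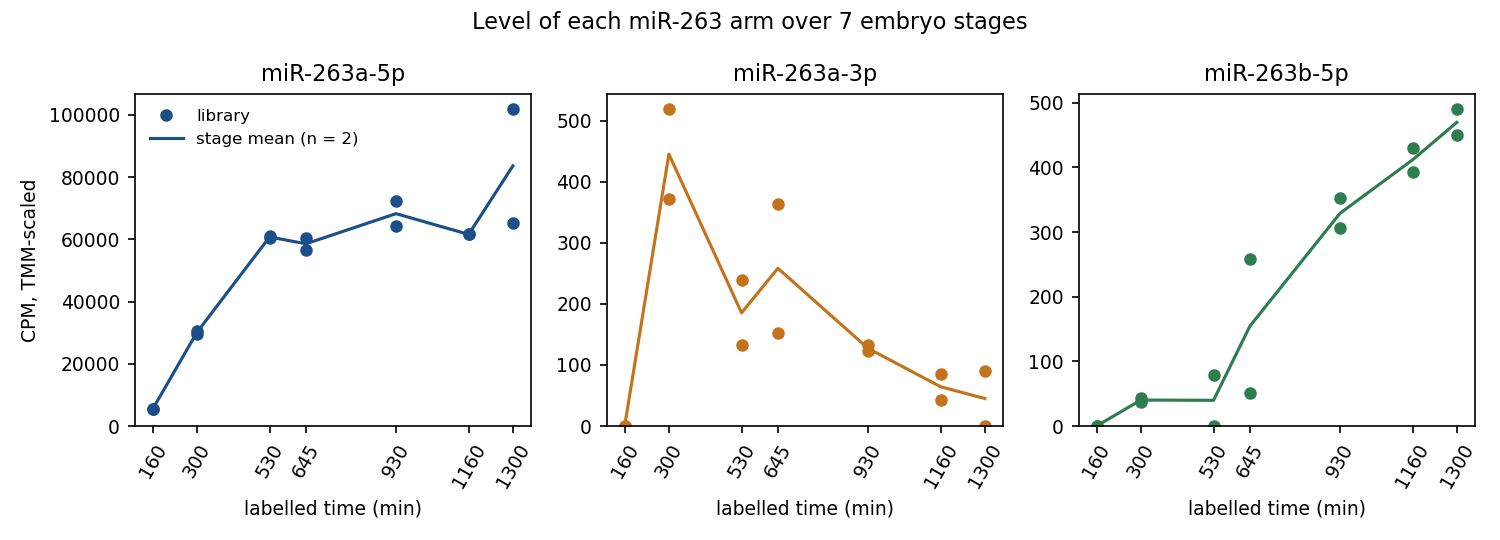
TMM-scaled CPM (vertical axis, linear and separate for each panel) of the 3 arms against the labelled time in minutes; points are libraries and lines join stage means (n = 2). miR-263a-5p climbs from 5434 to 60737 CPM by 530 min, miR-263a-3p is highest at 300 min, and miR-263b-5p climbs after 530 min to 470 CPM at 1300 min.

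Where the rise ended depended on the scaling. Between stages 3 and 4 the log2 fold change of miR-263a-5p was -0.05 ± 0.29 with TMM and did not pass (edgeR adjusted p = 0.881). With library size alone it was 0.81 (edgeR adjusted p = 0.0147), and in DESeq2 it was 0.44 (adjusted p = 0.0307). Library size alone moved the median of all 85 arms at this step by 0.86 against TMM. The later steps, of which the first called 14.1% of arms (5.88% higher, 8.24% lower) and the others 0%, did not pass in edgeR: 0.22 ± 0.29 from stage 4 to 5 (adjusted p = 0.604), -0.15 ± 0.29 from stage 5 to 6 (adjusted p = 0.938) and 0.44 ± 0.291 from stage 6 to 7 (adjusted p = 0.863). DESeq2 called the step to stage 5 (0.51, adjusted p = 0.0239). From stage 5 to 6 and from 6 to 7 edgeR called 0 of 85 arms, with 4 and 1 at an unadjusted p below 0.05, and DESeq2 also called 0.

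**Figure D2:**
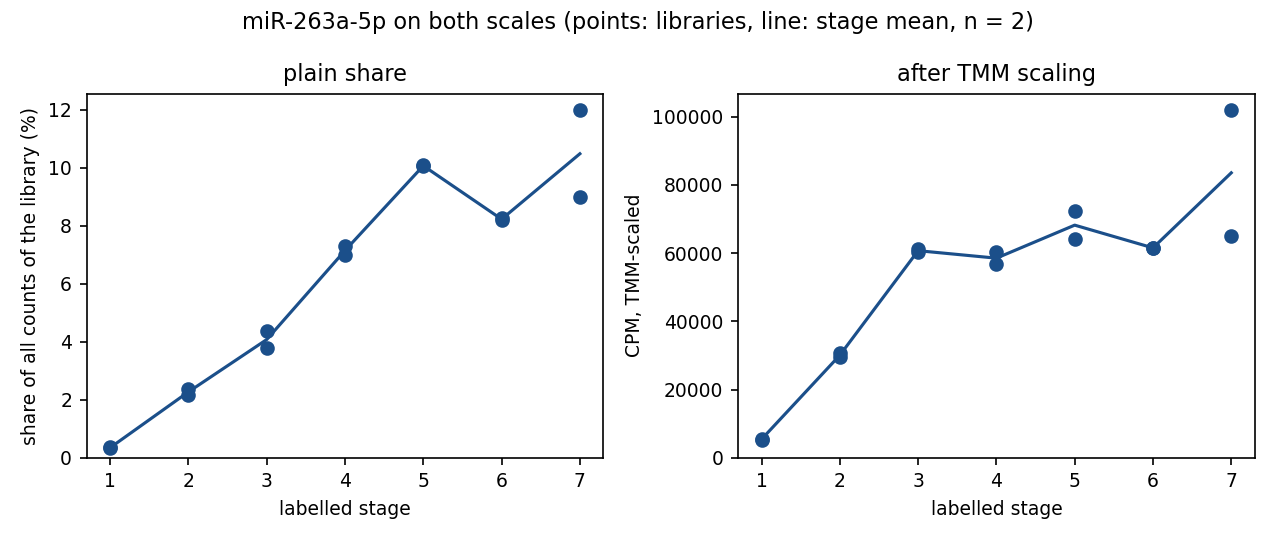
miR-263a-5p in each library (points) and as stage means (line, n = 2) by labelled stage, as a percentage of all counts (left) and as TMM-scaled CPM (right). The share still climbs from 4.08% to 7.15% between stages 3 and 4, while the scaled level is 60737 and 58545 CPM.

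Set against each other as a whole, the 6 libraries of stages 5 to 7 (late) were higher in miR-263a-5p than the 6 of stages 1 to 3 (early). The early libraries had a median of 30083 CPM (5354 to 61170) and the late ones of 64661 CPM (61533 to 101994). The periods did not overlap, but the highest early library (61170 CPM) was close to the lowest late one (61533 CPM). The log2 fold change was 1.72 ± 0.173 (edgeR adjusted p = 3.38e-08), beside a median of 0.86 over the 85 arms. Of all arms 80.0% were called, 50.6% as higher and 29.4% as lower. Late libraries lay wholly above the early ones for 38.8% of arms, and the periods were apart in either direction for 64.7%. The value was 2.69 with library size alone and 0.98 with only the 39 arms of mean count at least 50, and the arm was called in both. Those settings moved the median of the tested arms by 0.97 and -0.75 from 0.86. With only stages 6 and 7 against 1 and 2, which called 49.4% of arms as higher, the log2 fold change was 2.49 ± 0.219 (edgeR adjusted p = 5.60e-09).

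Stage 7 against stage 1 gave miR-263a-5p a log2 fold change of 3.94 ± 0.330 (edgeR adjusted p = 1.14e-08), with both libraries of stage 7 above both of stage 1. This comparison called 76.5% of arms, 50.6% as higher and 25.9% as lower. The size depended on the fit, in which leaving out a library also changed the tested arms and the scaling. It came to between 2.86 and 3.05 without any 1 of stage 1 replicate 2, stage 2 replicate 1 or 2, stage 3 replicate 1, stage 4 replicate 1, stage 5 replicate 1 or 2, or stage 7 replicate 2. In these fits the median of all tested arms was also lower, between 0.14 and 0.60, against 1.39 with all libraries. With only arms of mean count at least 50 miR-263a-5p had 2.80 (median of all arms 0.10). With library size alone it had 4.91 (median 2.35).

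miR-263b-5p, the guide arm of the other hairpin, came later and stayed rare. No count was seen in either library of stage 1, which allows a share of up to 0.00492% of counts over the stage. The libraries had 1 and 1 counts in stage 2, 0 and 2 in stage 3, and 2 and 22 in stage 4. They had 16 and 15 in stage 5, 10 and 23 in stage 6, and 45 and 38 in stage 7. Every library of stages 5 to 7 held at least 10 counts, while no library of stages 1 to 3 held more than 2, and stage 4 had one library like each.

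The mean share of miR-263b-5p was 0.00303% ± 4.47e-05 of counts in stage 2 (SD, n = 2) and 0.0598% ± 0.00319 in stage 7. In TMM-scaled CPM the stage means were 154 ± 146 in stage 4 and 329 ± 32.8 in stage 5, then 412 ± 25.7 in stage 6 before 470 ± 28.5 in stage 7. Late libraries (306 to 490 CPM) lay wholly above early ones (0 to 79.5 CPM). Pooled counts of 147 late and 4 early put the late level at 15.0 times the early one on the TMM scale (95% counting interval 5.73 to 55.7). Without stage 3 replicate 2, which held 2 of the 4 early counts, this pooled ratio was 24.7. The edgeR fit gave a log2 fold change of 4.58 ± 0.795 (adjusted p = 3.86e-05). That fit averages log levels over stages, of which stage 1 was at 0, so the fit in part sets this size. The arm passed the filter on low counts only through libraries of stages 4 to 7, where it was high, so the late call describes this course and is no separate support for it. Against the floor of 3 counts over stage 1, stage 7 was at least 6.04-fold higher (edgeR test of the fitted change, adjusted p = 0.00164).

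The moment of onset of miR-263b-5p could not be placed at one step. The steepest step with counts on both sides was from stage 3 to stage 4. Pooled counts of 2 and 24 gave a TMM-scaled ratio of 5.34 (95% counting interval 1.33 to 46.6). This step, which called 35.3% of all arms, did not pass, with a fitted log2 fold change of 2.13 ± 1.13 (edgeR adjusted p = 0.148). It passed with library size alone (log2 fold change 2.96, adjusted p = 0.0353) and without stage 4 replicate 1 and stage 7 replicate 2 together (2.75, adjusted p = 0.0397). Without stage 4 replicate 2, the library with 22 counts, the log2 fold change was 0.54 (edgeR adjusted p = 0.870). In order of level the stages ran 1, 3, 2, 4, 5, 6 and 7, and no 2 neighbours in it differed beyond their spread (edgeR adjusted p from 0.188 to 1). All the same, both 5p arms differed among the 7 stages, miR-263a-5p with an edgeR adjusted p = 1.76e-07 and miR-263b-5p with 0.00256, as did 81.2% of arms.

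Late against early both guide arms rose, and the balance between them was measured within each library. The ratio of the 2 guide arms within a library needs no scaling between libraries. miR-263b-5p made up 0 of 211 counts of both guide arms in stage 1, which allows a share of up to 1.42%, above every share measured later. The pooled share was 0.133% in stage 2 (95% exact binomial interval 0.0161 to 0.479), 0.0594% in stage 3 (0.00719 to 0.214) and 0.332% in stage 4 (0.213 to 0.494). It was 0.480% in stage 5 (0.326 to 0.680), 0.652% in stage 6 (0.449 to 0.914) and 0.572% in stage 7 (0.456 to 0.708). The measured share was at least 0.474% in every library from stage 5 on and at or below 0.141% in every earlier library but one, stage 4 replicate 2 with 0.453%. Single early libraries do not bound it below the late ones. Stage 1 had no miR-263b-5p count. The libraries of stage 2 had 1 each, with upper interval ends of 0.782% and 0.698%.

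Late against early, the log2 ratio of miR-263b-5p to miR-263a-5p was higher by 1.66 (exact permutation test, two-sided, p = 0.00866, 6 against 6 libraries). The test permutes single libraries although each stage gave 2, so its p takes both libraries of a stage as independent. The difference of 1.66 adds 0.5 to each count and so depends on the libraries at 0. With 1 added in its place the difference was 1.02 (exact permutation p = 0.130). As plain shares, with nothing added, the means were 0.575% ± 0.107 late and 0.0660% ± 0.0725 early (SD, n = 6; exact permutation p = 0.00216, the smallest this design can give). Without the sparse stage 1 they were 0.575% against 0.0991% ± 0.0664 (SD, n = 4; exact permutation p = 0.00952, again the smallest possible). Stage 1 was left out after the values had been seen, so this last comparison is no separate support. The 2 arms are close in sequence, and how reads that match both were assigned is not given in the sources used here; its part in the ratio was not tested.

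**Figure D3:**
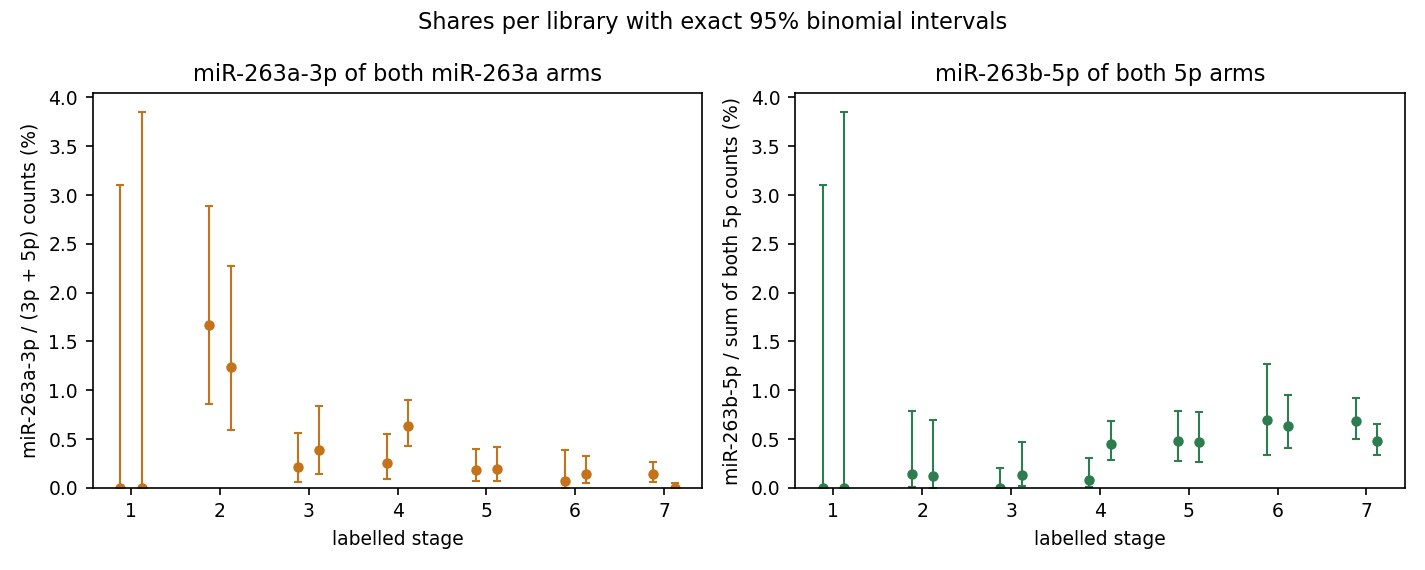
Left, miR-263a-3p as a percentage of the counts of both miR-263a arms; right, miR-263b-5p as a percentage of the counts of both guide arms, for each library by labelled stage, with exact 95% binomial intervals that cover counting error only. The left share falls from 1.66% and 1.24% in stage 2 to at most 0.138% in stage 7, the right one is at least 0.474% from stage 5 on, and the wide bars of stage 1 rest on 117 and 94 counts.

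miR-263a-3p, the passenger arm, was rare throughout. It had no count in stage 1, then 12 and 10 counts in the libraries of stage 2, 4 and 6 in stage 3, and 6 and 31 in stage 4. There were 6 and 6 in stage 5, 1 and 5 in stage 6, and 9 and 0 in stage 7. As a share of all counts the mean was 0.0333% ± 0.00477 in stage 2 and 0.0323% ± 0.0207 in stage 4 (SD, n = 2), and the highest library was stage 4 replicate 2 with 0.0469%. The mean TMM-scaled level was highest in stage 2, at 445 ± 104 CPM (SD, n = 2), and was 185 ± 75.3 in stage 3 and 258 ± 149 in stage 4. Stage 5 had 127 ± 6.90 CPM, stage 6 had 64.3 ± 30.1 and stage 7 had 45.0 ± 63.6. Its passage through the filter on low counts rests on the stages where it was high, among them stage 2. The calls from stage 1 to 2 and among the 7 stages thus describe this course. They are no separate support for it.

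The first step was the only one at which miR-263a-3p passed. Stage 2 was at least 5.68-fold higher than the floor of 3 counts over stage 1 (edgeR test of the fitted change, adjusted p = 0.0212). This call ended with DESeq2 size factors (edgeR adjusted p = 0.0612) and without stage 1 replicate 1 (0.140), stage 1 replicate 2 (0.201) or stage 2 replicate 1 (0.0914). The test among all 7 stages passed (edgeR adjusted p = 0.01997). That call ended with DESeq2 size factors (adjusted p = 0.0868), in DESeq2 (adjusted p = 0.0914) and in edgeR without stage 1 replicate 1 (0.0609), stage 2 replicate 1 (0.0541), stage 6 replicate 1 (0.0555) or stage 6 replicate 2 (0.0528). Late against early it did not pass (edgeR adjusted p = 0.649), with 27 late counts at 78.8 ± 49.8 CPM and 32 early counts at 210 ± 208 CPM (SD, n = 6). The fitted log2 fold change, 0.36 ± 0.694, had the opposite sign to the pooled ratio of 0.344 (95% counting interval 0.198 to 0.593); that fit averages log levels over stages, of which stage 1 was at 0. Stage 7 against stage 1, with 9 and 0 counts, did not pass (edgeR adjusted p = 0.186).

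The balance of the miR-263a arms shifted further toward 5p after stage 2. Of the counts of both arms, miR-263a-3p made up 1.66% and 1.24% in the libraries of stage 2, 0.218% and 0.388% in stage 3, and 0.253% and 0.637% in stage 4. It made up 0.182% and 0.190% in stage 5, 0.0698% and 0.139% in stage 6, and 0.138% and 0% in stage 7, where 0 of 7911 counts allow a share of up to 0.0379%. Pooled over a stage the share was 1.44% in stage 2 (95% exact binomial interval 0.906 to 2.17), and the upper ends of the intervals of stages 3 to 7 were at most 0.703%. In stage 1, 0 of 211 counts allow a share of up to 1.42% by the floor of 3 counts and 1.73% by the exact interval, on either side of the stage 2 value.

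Late against early, the log2 ratio of miR-263a-3p to miR-263a-5p was lower by 2.74 (late minus early -2.74, exact permutation test of single libraries, two-sided, p = 0.00216, the smallest 6 against 6 libraries can give). Stage 7 replicate 2, without a 3p count, weighs on that size, and without it the difference was -1.97 (exact permutation p = 0.00433). The call rests on the 0.5 added to each count, since as plain shares that include the zeros of stage 1 the means were 0.586% ± 0.701 early and 0.120% ± 0.0727 late (SD, n = 6; exact permutation p = 0.156). With 0.5 added, the stage 1 libraries, at 0 of 117 and 0 of 94 counts, had log2 ratios of -7.88 and -7.56. Their low depth alone put these above every late value (at most -8.92), so stage 1 could not test the fall. Set against stages 2 and 3, the early stages with 3p counts, the late share was 0.120% against 0.878% ± 0.689 (SD, n = 4). All 6 late libraries (0% to 0.190%) lay below all 4 of these (0.218% to 1.66%), which gives the smallest possible exact permutation p = 0.00952. Stage 1 was left out for its 0 counts after the values had been seen. This comparison therefore describes those stages and is no separate support for a late fall. Pooled, the late share was 0.104% (95% exact binomial interval 0.0687 to 0.152).

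The arm balance of miR-263a was then placed among the other hairpins, in a comparison added after the values had been seen. It took in the 17 hairpins with at least 20 counts of the rarer arm and at least 100 counts of both arms in each period. miR-263a had the third smallest share of its rarer arm, 0.251% over all libraries, behind miR-286 (0.0255%) and miR-184 (0.142%), and the median was 10.8%. The rarer arm passed as lower late in 2 of the 17 hairpins (11.8%), miR-263a (exact permutation p adjusted over the 17, 0.0123) and miR-184 (log2 difference -1.46, adjusted p = 0.0368). It passed as higher in 3 (17.6%), miR-311, miR-10 and miR-9b, whose differences were 4.21, 0.56 and 1.15. The median difference was -0.35, and that of miR-263a was the lowest. These tests also permute single libraries and add 0.5 to each count. As a plain share the difference of miR-263a did not pass (exact permutation p = 0.156), and the other hairpins were not tested as plain shares. The late shares of miR-263a (at most 0.190%) overlap the early ones, which are 0% in stage 1. There the added 0.5 and the depth set the log2 ratio.

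**Figure D4:**
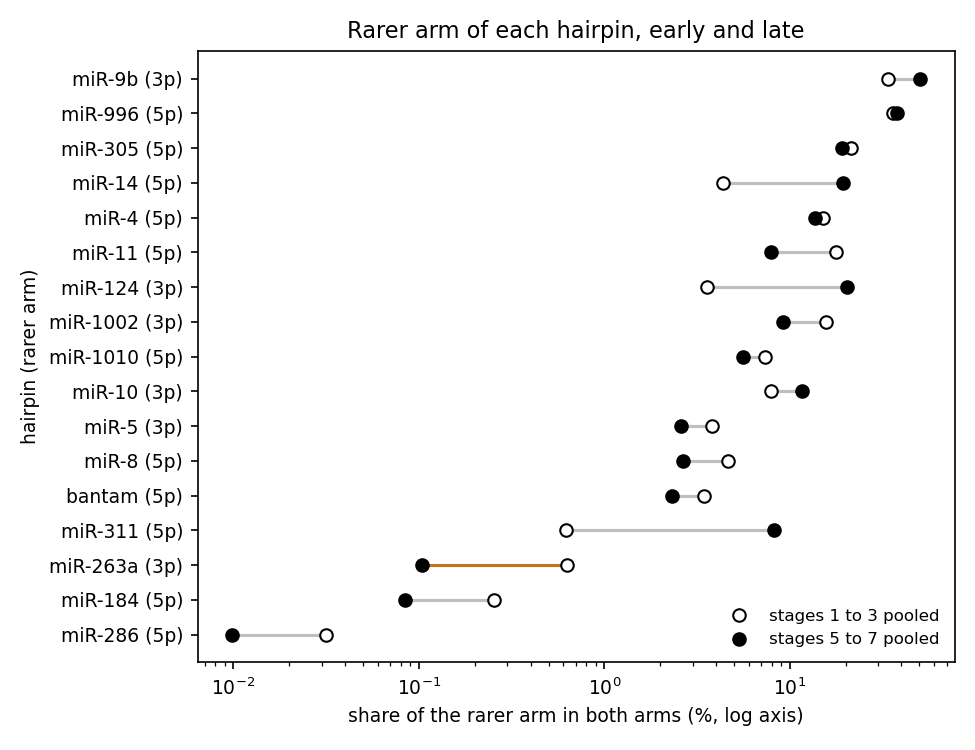
Share of the rarer arm in the counts of both arms (log axis, percent) for 17 hairpins, pooled over stages 1 to 3 (open) and 5 to 7 (filled), ordered by the share over all libraries. miR-263a, with the coloured line, moves from 0.626% to 0.104%; no error is drawn.

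None of the tested arms from a list of other miRNAs known from sensory organ development was called higher late with TMM. Of the 4 arms listed, 3 were tested: miR-996-3p fell (log2 fold change -1.23 ± 0.336, edgeR adjusted p = 0.00215), while miR-9a-5p, which safeguards the number of sensory organ precursors, had -0.25 ± 0.214 (adjusted p = 0.297) and miR-279-3p, known from olfactory neurons, had -0.26 ± 0.28 (adjusted p = 0.405). miR-7-5p, known from photoreceptors, had 45 counts and was not tested. Thus 0 of 3 were called higher and 1 lower, beside 50.6% and 29.4% of all arms. The median of the 3 was -0.26, beside 0.86 over all 85 arms. The directions depended on the scaling: library size alone called 2 of the 3 higher and 0 lower (of all 85 arms, 54 higher and 20 lower). The set of arms averaging 50 counts or more called both of its arms lower (of all 39, 16 higher and 18 lower), and with no filter 0 passed (of all 251, 66 higher and 31 lower). Leaving out 1 library also changed the tested arms and the scaling, and the median over all of them ran from 0.10 to 1.04. More listed arms fell in the fits where this median was at most 0.42. The number that fell was unchanged where it was at least 0.60.

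The second list held 10 arms known to act on the proapoptotic genes hid, reaper, grim or sickle or otherwise on cell death. Of the 7 tested, 2 rose, 2 fell and 3 did not pass, beside 50.6% of all arms called higher and 29.4% lower. Their median was -0.23. bantam-3p, the other well-known regulator of hid, rose by 2.19 ± 0.194 on the log2 scale (edgeR adjusted p = 5.58e-09), from 26641 ± 5995 to 121072 ± 21850 CPM (SD, n = 6). miR-14-3p, which restrains cell death, rose by 0.86 ± 0.243 (adjusted p = 0.00293) and was itself the median arm of the 85. miR-6-3p fell by 2.31 (SE 0.232, adjusted p = 3.38e-08) and miR-2b-3p fell by 0.67 (SE 0.233, adjusted p = 0.0116). With library size alone 4 rose and 1 fell (of all 85 arms, 54 and 20), and among arms averaging 50 counts or more 1 of 6 rose and 4 fell (of all 39, 16 and 18). With 1 library left out, more listed arms fell and fewer rose in the fits where the median of all tested arms was at most 0.42. Where that median was at least 0.60 the number that rose was unchanged. Fewer then fell without stage 6 replicate 1 or stage 7 replicate 1. miR-11-3p, miR-13b-3p and miR-2a-3p were the 3 that did not pass, and miR-13a-3p, miR-2c-3p and miR-308-3p had 30, 19 and 6 counts and were not tested. Over whole embryos, fewer cells of a type and less RNA per cell cannot be told apart.

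The arms with the most similar courses differed between the 2 genes. Pearson's r of log2 CPM over the 7 stage means is given here as a description over libraries that share their scaling. For miR-263a-5p the 5 arms most like it were miR-283-5p (0.985), miR-1002-5p (0.967), miR-968-5p (0.959), miR-315-5p (0.923) and miR-276a-3p (0.918), and over the 14 single libraries r was 0.959, 0.948, 0.931, 0.898 and 0.904. For miR-263b-5p they were miR-993-3p (0.991), miR-927-3p (0.977), bantam-3p (0.976), miR-8-3p (0.974) and miR-316-5p (0.973), with 0.877, 0.923, 0.888, 0.920 and 0.855 over single libraries. The lists share no arm. Between miR-263a-5p and miR-263b-5p r was 0.748 over stage means and 0.708 over libraries, and between the 2 arms of miR-263a it was 0.421 and 0.366.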

How the data were processed

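The authors deposited unnormalised counts for each mature arm, all whole numbers. The tools named are Bowtie and HTSeq and the build dm6, per the submitters' processing notes; not given in the sources used here are versions, the miRNA annotation and the treatment of multiply matching reads. Libraries were made from TRIzol RNA with a modified TruSeq small RNA kit and PCR, per the labels' protocols. Reads carry no molecular identifiers, so intervals and floors (3 counts) cover counting error only.

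Columns were matched to libraries by title. Replicate numbers follow accession order, since the labels give none. The tests across arms used edgeR 4.0.16 in R 4.3.3: filterByExpr by stage (85 of 466 arms, at least 99.4% of each library), TMM factors (0.595 to 1.57), a quasi-likelihood fit with 1 coefficient per stage over all 14 libraries, and Benjamini-Hochberg adjustment over the 85 arms at 0.05. The SE was derived from the fold change and F. Late against early compared mean coefficients of stages 5 to 7 and 1 to 3. Folds of arms at 0 in a group are bounds or pooled ratios on the TMM scale. Ratios within a library used a pseudocount of 0.5 and exact permutation tests in scipy 1.17.1. These tests permuted single libraries and so took both libraries of a stage as independent. Alternatives were DESeq2 size factors, library size only, no filter, a mean count of at least 50, DESeq2 1.42.0, other stage groups and leaving out each library; library size after removal of miR-286-3p, removal of 2 libraries and ratios without stage 1 were added after the data had been seen. On simulated counts of 85 arms in 20 draws, late against early recovered 60.0% of 2-fold and 99.5% of 8-fold changes and called 2.18% of unchanged arms. The simulation changed a minority of arms in random directions from their pooled levels, with the same spread for every arm and no filter. It did not model the fall of miR-286-3p or stages without counts. These rates therefore do not cover errors of scaling or the rare arms.

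Named arms were the members, both lists, and the 5 arms of highest correlation (log2 CPM, prior count 2) with each guide arm; hairpins named for their arm share were chosen after their values were seen. The members and lists were chosen with earlier results of these data known. No miRNA sequences were used here, so arms were not grouped by seed.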

Additional observations from a re-analysis of the deposited data

Results flagged for a closer look

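One value stood apart among the 10 groups of 6 early or late libraries examined for the members' levels and shares. miR-263a-5p in stage 7 replicate 2 had 101994 CPM, and its gap to the next late library was 0.735 of the range of the late libraries, above Dixon's 95% critical value for 6 values; chance alone passes it in about 1 group of 20, and the late group spans 3 stages.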

How the results depend on the processing

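No paired analysis was possible because the labels carry no replicate numbers. A mean count of at least 50 left miR-263a-3p and miR-263b-5p untested. DESeq2 size factors ended 2 edgeR calls of miR-263a-3p, among all stages (adjusted p = 0.0868) and from stage 1 to 2 (log2 fold change 6.96), and DESeq2 the former (adjusted p = 0.0914). DESeq2 called miR-263a-5p from stage 2 to 3 (0.81) and from 4 to 5 (0.51). From stage 3 to 4 the sign of miR-263a-5p turned to 0.44 with DESeq2 size factors and in DESeq2, 0.81 with library size alone, 0.20 without a filter and 0.16 with library size after removal of miR-286-3p. miR-263b-5p passed at that step with library size alone (2.96) and without stage 4 replicate 1 and stage 7 replicate 2 together (2.75), a setting that also turned the uncalled miR-263a-3p from stage 6 to 7 to 0.29. The arm ratio of miR-263a did not pass as a plain share (-0.466 percentage points), nor the ratio of the guide arms with a pseudocount of 1 (1.02) or with stages 6 and 7 against 1 and 2 (1.04; exact permutation p = 0.0571). Apart from the settings that add or omit a pseudocount, the cause of these changes was not tested.

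With 1 library or the 2 named above left out, the test among stages of miR-263a-3p ran from an edgeR adjusted p of 0.000324 to 0.0609. Log2 fold changes of miR-263a-3p ran from 7.13 to 8.04 (stage 1 to 2), -0.95 to 0.64 (late against early), -0.15 to 1.16 (stage 3 to 4) and -4.62 to 0.36 (stage 6 to 7). Those of miR-263a-5p ran from 0.38 to 0.97 (stage 2 to 3) and -0.11 to 0.17 (stage 3 to 4), and those of miR-263b-5p from -3.91 to 0.33 (stage 2 to 3), 0.54 to 5.96 (stage 3 to 4) and -0.055 to 0.37 (stage 6 to 7). Late against early, miR-263a-5p kept its call throughout (1.20 to 1.91), as did miR-263b-5p, the arm ratio (-3.01 to -1.97) and the ratio of guide arms (1.11 to 1.97). Leaving out 1 library also moved the median of all tested arms late against early, from 0.10 to 1.04. Depth limits the 2 rare arms most, since stage 1 could show neither below 0.00492% of counts. Where a stage held 0 counts, the fit and not the counts sets the size. This holds for miR-263a-3p from stage 1 to 2, where the counts give at least 5.68-fold, and for its -0.95 (SE 2042, without stage 7 replicate 1). It also holds for -3.91 and 5.96 of miR-263b-5p, without stage 3 replicate 2. In part it holds for the 4.58 of miR-263b-5p late against early, which averages in stage 1 at 0 counts. Pooled counts gave 15.0-fold there.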
